A study of Mus musculus with 6 samples.

Results

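The genes of cholesterol and fatty acid synthesis, 33 of the 21720 genes in the deposited table, were examined in H22 tumours. They were listed by symbol and known function, by a rule that uses no measured value, though with earlier results of these data known. They comprise 16 enzymes of sterol synthesis, 5 genes of SREBP control and sterol transport, 8 genes of lipogenesis, and 4 genes of LXR control, cholesterol efflux and esterification. All 33 were found in the table and passed the filter on low counts. H22 is a mouse hepatocellular carcinoma line, here injected under the skin of wild-type female BALB/c mice aged 6 to 8 weeks. The control group received 0.5% carboxymethyl cellulose sodium and the luteolin group 200 mg/kg luteolin, a plant flavonoid, by gavage once a day for 21 days in 0.2 ml, starting at a tumour volume of about 50 mm3. Whole tumours were sequenced, with 3 libraries in each group, and every library therefore holds tumour cells mixed with host cells. The comparison asks which genes of lipid synthesis differed in RNA level between the luteolin and the control tumours.

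Cells make cholesterol from acetyl-CoA through mevalonate, farnesyl diphosphate and squalene, and fatty acids from acetyl-CoA through malonyl-CoA. Both routes are switched on by the SREBP transcription factors, which Scap escorts out of the endoplasmic reticulum when sterols are scarce and which Insig proteins hold back when sterols are plentiful. The liver X receptors (LXR) answer the opposite state. When oxysterols accumulate they raise the efflux pumps Abca1 and Abcg1, and they also raise Srebf1 and lipogenic genes. In the liver both systems balance lipid supply, and in macrophages the LXR branch is best known for exporting cholesterol.

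Promoter sequences show where these inputs could be read. RefSeq windows on GRCm38.p6, running from 250 bases before to 50 bases after a gene start, were matched by symbol for 25 of the 33 genes, giving 32 windows. Fdps, Fdft1, Sqle, Stard4, Scd1, Scd2, Fads1 and Abcg1 had no entry. The first 3 stretches below are shown because they hold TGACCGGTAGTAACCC, read with any bases in place of the GT after TGACCG, a direct repeat of the type that LXR binds with its partner RXR. The last is shown because it holds TCACNCCAC, the core of a sterol regulatory element, which SREBP binds. Each runs 5′ to 3′ on the strand of its gene and ends at the base before the start, and capitals mark the match. The Abca1 stretch lies at chr4:53159896-53160145 (minus strand), that of Srebf1 at chr11:60210472-60210721 (minus), that of Fasn at chr11:120824548-120824797 (minus) and that of Hmgcs1 at chr13:119690101-119690350 (plus).
Abca1: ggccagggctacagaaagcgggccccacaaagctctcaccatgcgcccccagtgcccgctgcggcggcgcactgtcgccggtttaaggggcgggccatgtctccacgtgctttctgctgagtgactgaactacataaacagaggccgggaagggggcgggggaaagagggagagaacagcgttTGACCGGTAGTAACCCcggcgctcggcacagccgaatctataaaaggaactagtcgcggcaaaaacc
Srebf1: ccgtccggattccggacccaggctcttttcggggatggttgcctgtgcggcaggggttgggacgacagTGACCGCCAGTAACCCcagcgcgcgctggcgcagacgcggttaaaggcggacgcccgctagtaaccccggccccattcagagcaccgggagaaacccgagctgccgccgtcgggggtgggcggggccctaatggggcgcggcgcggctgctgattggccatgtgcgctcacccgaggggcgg
Fasn: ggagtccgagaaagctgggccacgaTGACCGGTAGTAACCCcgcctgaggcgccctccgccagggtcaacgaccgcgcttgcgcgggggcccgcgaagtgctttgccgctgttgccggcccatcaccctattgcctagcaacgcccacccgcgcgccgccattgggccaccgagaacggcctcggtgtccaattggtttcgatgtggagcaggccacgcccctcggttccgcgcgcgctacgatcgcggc
Hmgcs1: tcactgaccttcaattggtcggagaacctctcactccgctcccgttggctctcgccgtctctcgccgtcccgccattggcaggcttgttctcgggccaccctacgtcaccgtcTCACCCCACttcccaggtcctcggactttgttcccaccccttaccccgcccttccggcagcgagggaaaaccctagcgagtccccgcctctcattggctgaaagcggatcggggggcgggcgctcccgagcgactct

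The direct repeat began 67 bases before the start in Abca1, 182 in Srebf1 and 225 in Fasn. Its letters were written after the Abca1 and Srebf1 windows had been seen, so only the match in Fasn was not built in. Among all 32851 windows of the table, 3 held it (0.00913%), and these were the 3 printed above. Perfect repeats of AGGTCA and of AGTTCA, each with 4 bases between the copies, were found in 5 (0.0152%) and 4 (0.0122%) of all windows and in 0 of the 32 windows of the lipid genes. TCACNCCAC was found in 408 windows (1.24%), 1 of them of a listed gene, that of Hmgcs1, where it began 137 bases before the start. The box CCAAT, to which NF-Y binds beside SREBP, was found in 20 of the 32 windows (62.5%), against 37.4% of all windows. Counted by gene, all 13 sterol synthesis enzymes with an entry had CCAAT in at least 1 window, compared with 41.1% of the 27025 genes in the promoter table, 3 of 4 genes of SREBP control and sterol transport, 2 of 5 lipogenic genes, and 1 of 3 genes of the LXR group. The Sp1 box GGGCGG was found in 23 of the 32 windows (71.9%), against 35.7% of all windows. The E-box CANNTG was found in 25 (78.1%), against 72.3%. Both strands were searched, and a match in letters is not a measured binding site.

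**Figure D1:**
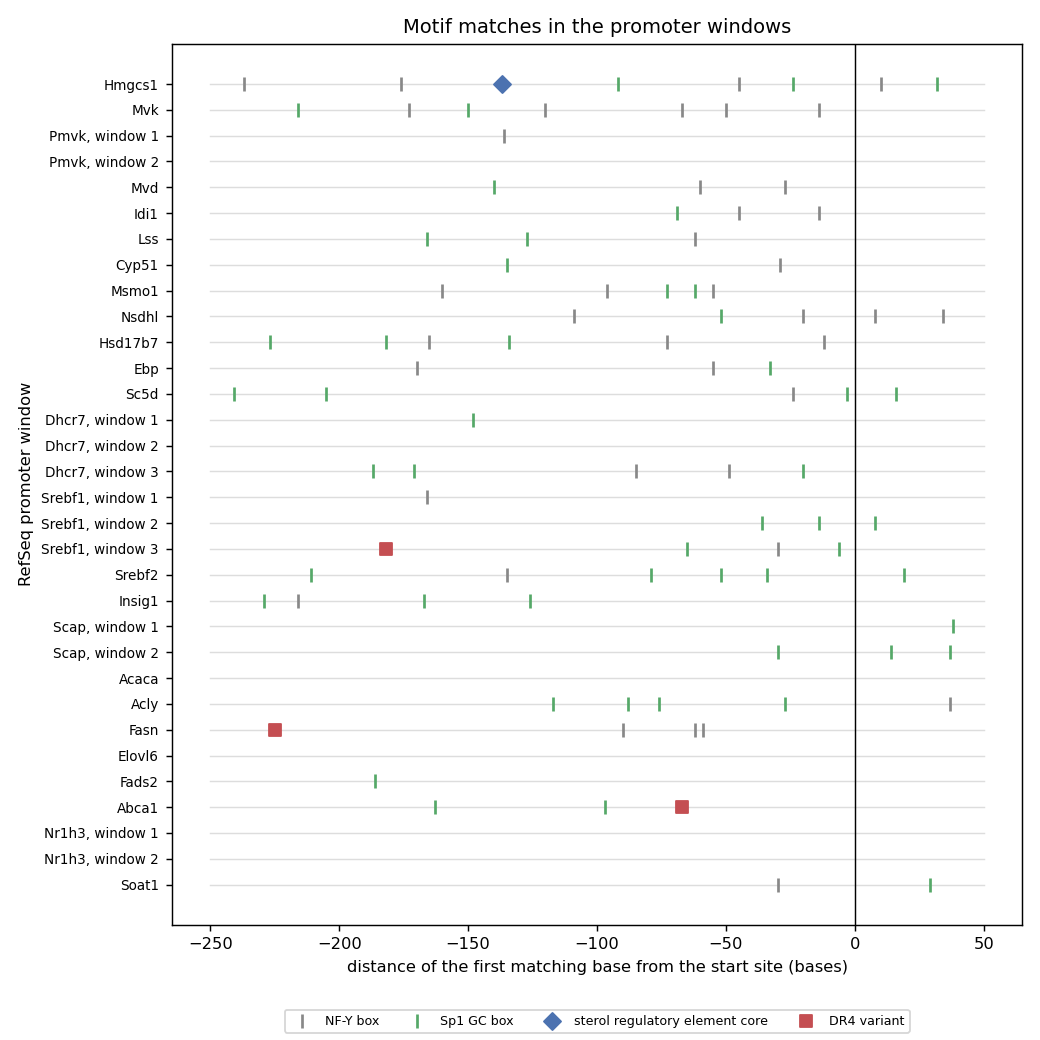
Positions of motif matches in the RefSeq promoter windows of the listed genes, with the distance from the gene start in bases on the horizontal axis, 1 row per window and the symbols named in the legend (NF-Y box for CCAAT, DR4 variant for the direct repeat). The direct repeat is drawn for Abca1, Fasn and 1 of the 3 windows of Srebf1, the sterol regulatory element core is drawn for Hmgcs1, and the CCAAT box recurs in the sterol synthesis enzymes.

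Library totals ranged from 61081637 to 80442954 estimated counts. Levels are given per library in CPM, the estimated counts scaled to a common library total after normalization for composition, in the order control replicates 1, 2 and 3 and then luteolin replicates 1, 2 and 3. Luteolin replicate 2 stood apart from the other libraries. Its summed level of 10 keratinocyte markers was 9262 CPM, against 13.9 to 18.5 CPM in the control libraries and 409 and 20.2 CPM in the other luteolin libraries. The most abundant of these markers was Krt14, a keratin of basal epidermis, which was listed at 0 in all controls, where 6 to 7 of the 10 markers were at 0. Sebaceous gland markers, a list of 8, summed to 371 CPM there and to 3.21 to 20.5 CPM elsewhere, with Krt79 the most abundant and also at 0 in all controls. Adipocyte markers, also a list of 8, summed to 398 CPM there and to 32.3 to 94.6 CPM elsewhere, with Fabp4 the most abundant and with 6, 4 and 1 of the 8 at 0 in the controls. Of the 33 lipid genes, 18 had their highest level in luteolin replicate 2, against 5091 of the 14963 genes tested. The part of skin or fat RNA in the lipid gene levels was not tested. Values without this library are given beside the lipid genes called and beside lipid genes more than 2 times their median level in it, where named. Of the 12 hepatoma and hepatocyte markers, Trf, Krt18 and Afp were at 122 to 347, 193 to 266 and 32.7 to 66.7 CPM, and apart from Trf, the most abundant, the genes of this list were named after their values were seen. Alb, the serum albumin of hepatocytes, varied widely, at 3.06, 60.3 and 0.868 CPM in control and 133, 26.0 and 31.9 CPM in luteolin tumours. The other 8 stayed at 3.54 CPM or less in every library, among them the hepatocyte factor Hnf4a and the secreted protein Ttr, at 0.392 CPM or less. In bulk tissue, fewer cells of a type and less RNA per cell cannot be told apart.

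Luteolin tumours had more RNA of the cholesterol export genes Abca1 and Abcg1 than control tumours, and 0 of 16 enzymes of sterol synthesis passed edgeR's test in either direction. At the study's threshold (unadjusted p under 0.05 and over 2-fold) 4 of the 33 genes rose, which is 12.1%. The share over all 14963 genes tested was 11.3%, so the listed genes as a whole were called about as often as any gene. The 4 were Abca1, Abcg1, Nr1h3 and Stard4. None of the 33 fell by over 2-fold, against 1.52% of all genes. At an adjusted p under 0.05 (Benjamini-Hochberg, over the quasi-likelihood tests of edgeR) 1 of the 33 rose, against 1.34% of all genes, and 0 fell, against 0.187%. At an unadjusted p under 0.05 with any fold, 5 genes were higher, the same 4 and Fads1 (background 14.0%), and Acaca and Acly were lower (6.44%). In 4 genes every luteolin library lay above every control library (background 15.9%), and in 3 every one lay below (12.8%). The median log2 fold change of the 33 genes was 0.10, against -0.0073 over all genes. By DESeq2, 11.5% of all genes were higher and 1.61% lower at the study's threshold, and 9.59% and 2.58% at an adjusted p, where 4 of the 33 were higher. By voom with sample quality weights these shares of all genes were 11.7%, 3.33%, 12.6% and 8.76%, and at an adjusted p 6 of the 33 were higher and 2 lower.

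**Figure D2:**
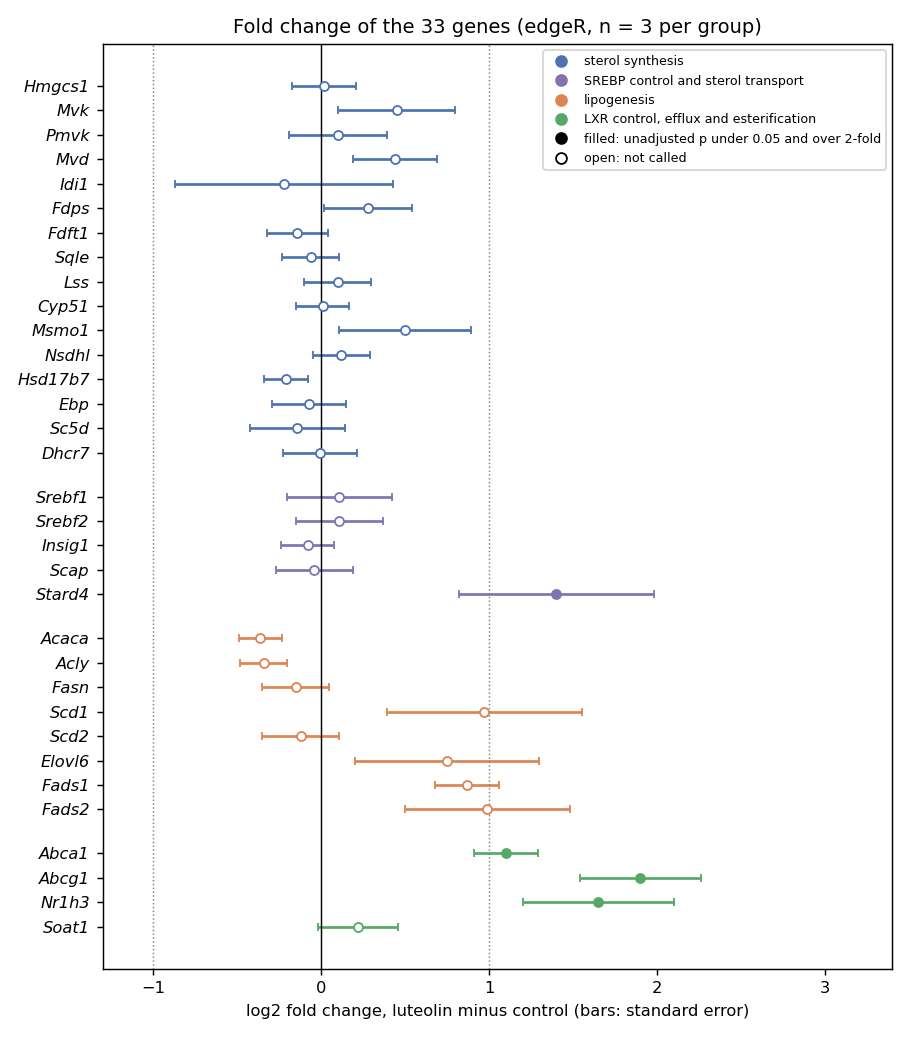
Log2 fold change of luteolin over control for each of the 33 genes, grouped by role, with standard errors, from the edgeR fit to 3 libraries per group. Filled points mark the 4 genes past the study's threshold (Stard4, Abca1, Abcg1 and Nr1h3), and the 16 sterol synthesis enzymes lie between -0.22 and 0.50.

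The 16 enzymes of sterol synthesis did not differ detectably between the groups. Their log2 fold changes ran from -0.22 (Idi1) to 0.50 (Msmo1), with a median of 0.01, and 0 of 16 passed at either threshold. Over all genes 11.3% were higher and 1.52% lower at the study's threshold, so few calls would be due among 16 genes. Msmo1 was lowest in control replicate 1, at 19.4 CPM, and its log2 fold change was 0.15 without that library. The smallest unadjusted p among them was 0.12, for Mvd, so 0 also passed at an unadjusted p under 0.05. Summed over the role, the levels were 909, 1015 and 1024 CPM in control tumours and 992, 1066 and 923 CPM in luteolin tumours. The groups overlapped, with a luteolin to control ratio of 1.01. Hmgcs1, which condenses acetoacetyl-CoA with acetyl-CoA at the entry of the mevalonate route, measured 118, 142, 132, 125, 163 and 108 CPM. Its log2 fold change was 0.02 (SE 0.19), with the highest and the lowest library both in the luteolin group. Sqle, the squalene epoxidase, measured 80.8, 110, 115, 103, 92.2 and 97.9 CPM, and its log2 fold change was -0.06 (SE 0.17). Every luteolin library of Sqle lay within the range of the controls.

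Farther along the route, Cyp51 (lanosterol demethylase) had a log2 fold change of 0.0093 (SE 0.16) and Dhcr7, which catalyses a final step to cholesterol, of -0.0077 (SE 0.22). The log2 fold changes of Pmvk, Fdps, Fdft1, Lss, Nsdhl, Ebp and Sc5d lay between -0.14 and 0.28. Hsd17b7, a sterol ketoreductase, was the only enzyme of the role whose groups did not overlap. That is 1 of 16 below every control (6.25%), under the 12.8% of all genes, so it is no result about the role. Its levels were 84.1, 84.3 and 88.6 CPM in control tumours and 75.8, 72.5 and 73.2 CPM in luteolin tumours, a log2 fold change of -0.21 (SE 0.13, adjusted p = 0.401 by edgeR). Mvk and Mvd, the mevalonate kinase and the decarboxylase that yields isopentenyl diphosphate, had log2 fold changes of 0.45 (SE 0.35) and 0.44 (SE 0.25). Mvk was at 33.8 CPM in luteolin replicate 2 and at 13 to 19.5 CPM elsewhere, and its log2 fold change was 0.02 without that library. Idi1, the isomerase that acts next, had the widest error of the role, at 48.4, 23.3 and 92.8 CPM in control and 63.9, 14.6 and 62.7 CPM in luteolin tumours. Its log2 fold change of -0.22 had an SE of 0.65, and voom, which weights the libraries unequally, gave 1.01, past the study's threshold (adjusted p = 0.117).

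Base composition moved with the libraries across the whole table. Over 14840 tested genes, deviations of a library from each gene's mean over all 6 libraries were correlated with transcript GC content. Spearman rho was 0.434 in control replicate 1 and 0.438 in luteolin replicate 2. It was -0.533, -0.364, -0.184 and -0.169 in control replicate 3, luteolin replicates 3 and 1 and control replicate 2. Genes share each library's composition here, so these are descriptions. With GC and length offsets in the fit the role still had 0 calls at the study's threshold.

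**Figure D3:**
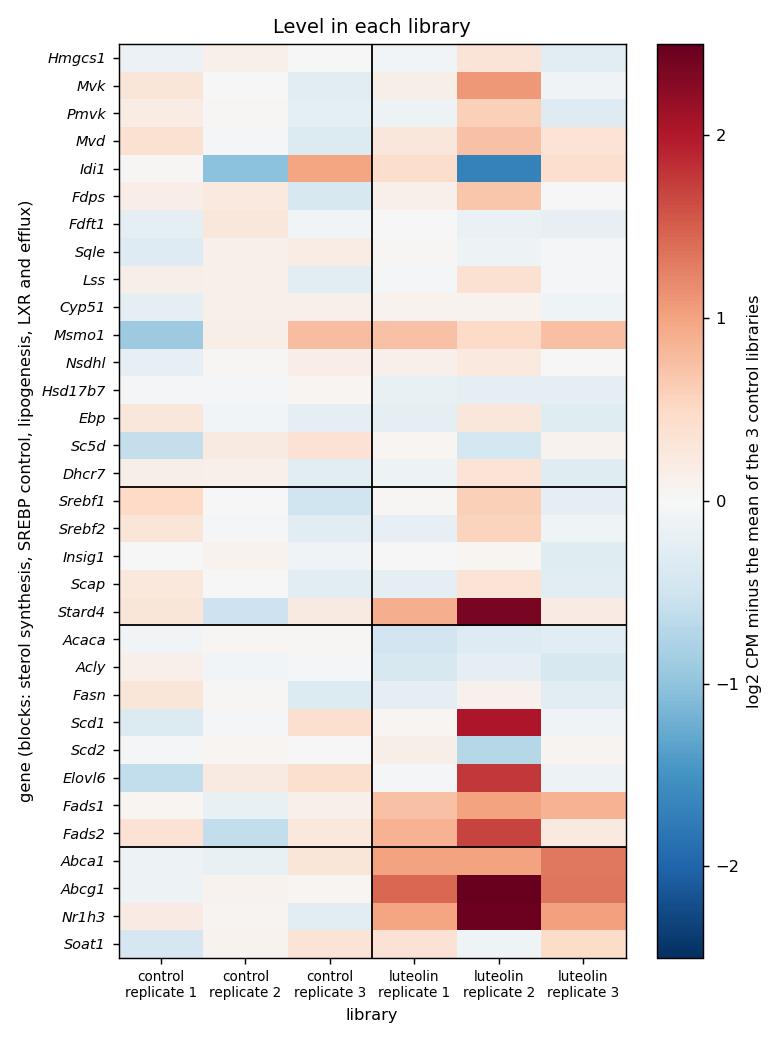
Heat map of the 33 genes (rows, by role) in the 6 libraries (columns), each cell giving log2 CPM minus the gene's mean over the 3 control libraries (the darkest red also covers larger values). The sterol synthesis rows show no block that separates the groups, the rows of Abca1, Abcg1 and Nr1h3 are high in all luteolin libraries, and the luteolin replicate 2 column holds the highest value of 18 genes.

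Of the 5 genes of SREBP control and sterol transport, 1 was called at the study's threshold (20.0%, against 11.3% of all genes). This was a sterol carrier whose groups overlapped, and the others did not differ between the groups beyond their spread. Srebf2, the factor that drives sterol synthesis, measured 181, 144 and 121 CPM in control and 128, 217 and 136 CPM in luteolin tumours, a log2 fold change of 0.11 (SE 0.26). Srebf1, the lipogenic factor, measured 131, 93.6, 65.5, 95.0, 141 and 78.7 CPM, and its log2 fold change was also 0.11 (SE 0.31). In both genes the highest luteolin library was replicate 2 and the groups overlapped. Insig1, itself a sensitive SREBP target, ranged from 58.5 to 76.9 CPM, with a log2 fold change of -0.08 (SE 0.16), and Scap had one of -0.04 (SE 0.23). Stard4, a cytosolic sterol carrier, rose at the study's threshold, at 6.50, 3.72 and 6.16 CPM in control and 9.91, 27.3 and 6.10 CPM in luteolin tumours (log2 fold change 1.40, SE 0.58, adjusted p = 0.234 by edgeR). The third luteolin library lay inside the control range. Without luteolin replicate 2 the log2 fold change of Stard4 was 0.57 (adjusted p = 0.506 by edgeR), and its call was also lost without any 1 control library, where it lay between 1.14 and 1.49.

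In lipogenesis, early enzymes of the route lay lower and a desaturase lay higher in every luteolin library, each by under 2-fold. These were 2 of the 8 genes below every control (12.8% of all genes were) and 1 of 8 above (15.9%), and over all 33 genes both shares were under these backgrounds. The 8 genes had a median log2 fold change of 0.32, or -0.08 without luteolin replicate 2, and 0 passed the study's threshold. Summed levels were 2136, 2128 and 2092 CPM in control and 2051, 2456 and 1984 CPM in luteolin tumours. Acly, which makes cytosolic acetyl-CoA from citrate, measured 363, 316 and 319 CPM in control and 252, 284 and 253 CPM in luteolin tumours. Every luteolin library of Acly lay below every control library, with a log2 fold change of -0.34 (SE 0.14, adjusted p = 0.224 by edgeR). Acaca, the acetyl-CoA carboxylase that commits carbon to fatty acids, measured 107, 116 and 114 CPM in control and 80.5, 89.2 and 93.0 CPM in luteolin tumours. It too did not overlap, with a log2 fold change of -0.36 (SE 0.13, adjusted p = 0.197 by edgeR). Leaving out each library in turn kept Acly between -0.39 and -0.30 and Acaca between -0.45 and -0.30. Neither passed after adjustment over all genes by edgeR, whereas both did by voom (adjusted p = 0.0143 for Acaca and 0.0263 for Acly).

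Fads1, the delta-5 desaturase that makes arachidonate, was separated in the other direction. It measured 15.0, 12.8 and 15.9 CPM in control tumours (14.6 ± 1.59, SD, n = 3) and 24.2, 29.0 and 26.5 CPM in luteolin tumours (26.6 ± 2.44, SD, n = 3). Its log2 fold change of 0.87 (SE 0.19, adjusted p = 0.0785 by edgeR) fell short of 2-fold, and leaving out any 1 library moved it between 0.76 and 0.93. Its adjusted p was under 0.05 in 3 of 16 alternative settings. Fads2, the delta-6 desaturase of the same route, measured 3.63, 1.85 and 3.38 CPM in control and 5.14, 9.11 and 3.33 CPM in luteolin tumours. The groups overlapped and the highest library was luteolin replicate 2, with a log2 fold change of 0.99 (SE 0.49, adjusted p = 0.314 by edgeR) that went to 0.53 without it. Fads2 passed the study's threshold only by voom (1.17) and without luteolin replicate 3 (1.21) among the 16 alternative settings.

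Fatty acid synthase itself, Fasn, measured 495, 409 and 318 CPM in control and 340, 431 and 334 CPM in luteolin tumours, and the groups overlapped (log2 fold change -0.15, SE 0.20). Scd1 and Scd2 insert the double bond of oleate and are close relatives, whose shared reads the counting could have split in ways not known here. Scd1 measured 163, 200 and 275 CPM in control and 215, 841 and 196 CPM in luteolin tumours. The value of luteolin replicate 2 was 4.05 times the median of the 6 libraries, and the log2 fold change of 0.97 (SE 0.58) went to -0.03 without it. Scd2, the most abundant gene of all 33 per length of transcript (180 CPM per kb in control and 166 in luteolin tumours), showed the reverse in that library. It measured 956, 1013 and 981 CPM in control and 1086, 601 and 1031 CPM in luteolin tumours. Elovl6, which lengthens palmitate, also peaked in luteolin replicate 2, at 171 CPM against 33 to 66.5 CPM elsewhere, and its log2 fold change of 0.75 (SE 0.55) went to -0.12 without it. Scd3, a desaturase outside the list that was named after its values were seen, was at 30.9 CPM in this library and at 0.814 to 1.58 CPM in the others. Its log2 fold change of 3.05 (SE 1.42) went to -0.61 without this library.

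**Figure D4:**
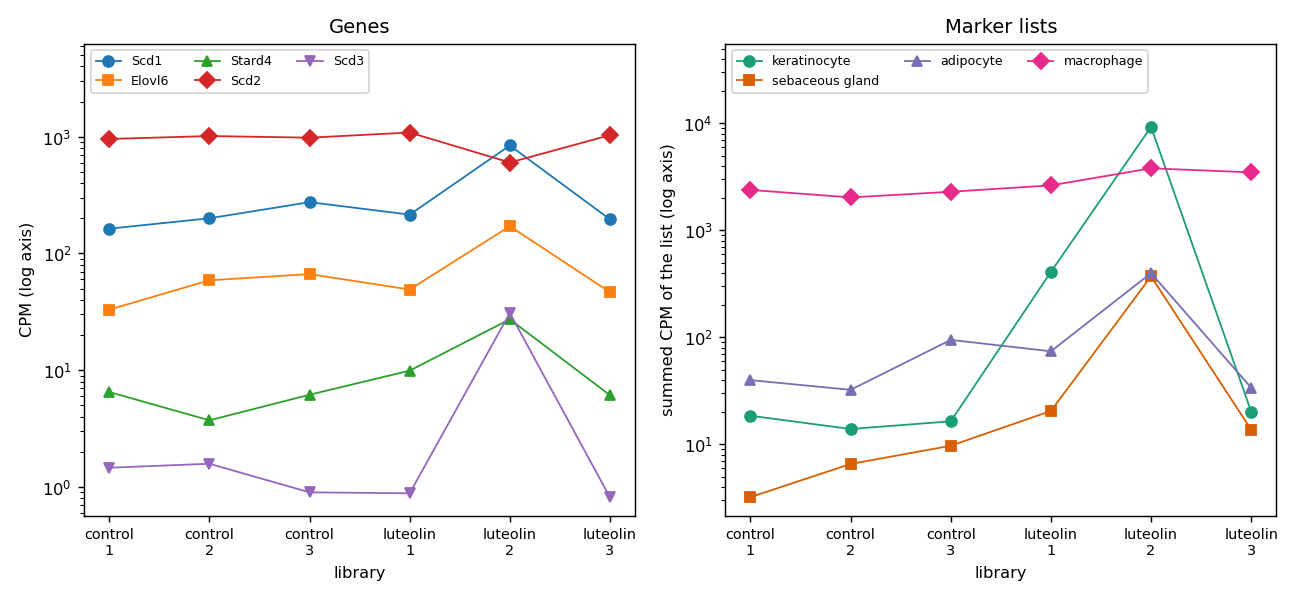
Levels in the 6 libraries, with CPM of 5 genes on the left and the summed CPM of 4 marker lists on the right, both on log axes. Luteolin replicate 2 has the highest Scd1, Elovl6, Stard4 and Scd3, the lowest Scd2, and the highest keratinocyte, sebaceous gland, adipocyte and macrophage marker sums.

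The LXR group held the clearest differences. Of its 4 genes 3 rose at the study's threshold (11.3% of all genes did), and 1 of the 4, Abca1, at an adjusted p by edgeR (1.34% of all genes). Their median log2 fold change was 1.37, or 1.09 without luteolin replicate 2, and the summed level was 1.53 times as high in luteolin as in control tumours (256, 334 and 398 CPM against 488, 489 and 533 CPM). Abca1, the pump that loads cholesterol on apolipoprotein A-I and whose promoter stretch is printed above, measured 50.8, 49.1 and 68.6 CPM in control tumours (56.2 ± 10.8, SD, n = 3) and 111, 111 and 139 CPM in luteolin tumours (120 ± 16.0, SD, n = 3). The 3 luteolin libraries were close to each other and all above the controls. The log2 fold change was 1.10 (SE 0.19, adjusted p = 0.0493 by edgeR), and between 0.94 and 1.26 with each library left out, the lowest being that without luteolin replicate 3, which was under 2-fold. Without luteolin replicate 2 it was 1.17, with an adjusted p of 0.0447 by edgeR. The adjusted p lay just under the threshold, and over the 16 alternative settings it ran from 0.000136 to 0.277, with 8 of 16 under 0.05. Without any 1 control library, or without luteolin replicate 1, 0 genes of the whole table passed at an adjusted p by edgeR, whereas 1302 to 1710 genes were higher at the study's unadjusted threshold.

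Abcg1, the pump that passes cholesterol on to high density lipoprotein, showed the largest fold of the 33 genes. Its levels were 18.9, 22.1 and 21.4 CPM in control tumours (20.8 ± 1.65, SD, n = 3) and 56.0, 125 and 52.5 CPM in luteolin tumours (77.8 ± 40.9, SD, n = 3). The controls were close together, and luteolin replicate 2 was far above the other luteolin libraries. The log2 fold change was 1.90 (SE 0.36, adjusted p = 0.0574 by edgeR), so its call rests on the unadjusted p. Without luteolin replicate 2 it was 1.40, with an adjusted p of 0.0244 by edgeR. Abcg1 met the study's threshold in 16 of 16 alternative settings. Its adjusted p over these settings ran from 1.39e-05 (DESeq2) to 0.239, with 7 of 16 under 0.05.

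Nr1h3, which encodes the receptor LXR alpha, was a low-abundance gene that also rose. It measured 6.24, 5.70 and 4.50 CPM in control tumours (5.48 ± 0.892, SD, n = 3) and 10.8, 29.6 and 11.1 CPM in luteolin tumours (17.2 ± 10.7, SD, n = 3). All luteolin libraries lay above all controls, and the highest was again replicate 2. The log2 fold change was 1.65 (SE 0.45, adjusted p = 0.118 by edgeR), and 1.02 without that library. Soat1, which esterifies cholesterol for storage and is the most abundant gene of the group in CPM, did not follow. Its levels of 180, 257 and 304 CPM in control and 310, 223 and 331 CPM in luteolin tumours overlapped, with a log2 fold change of 0.22 (SE 0.24, adjusted p = 0.674 by edgeR). Srebf1 and Fasn, whose stretches hold the same direct repeat as that of Abca1, had the log2 fold changes of 0.11 and -0.15 given above.

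**Figure D5:**
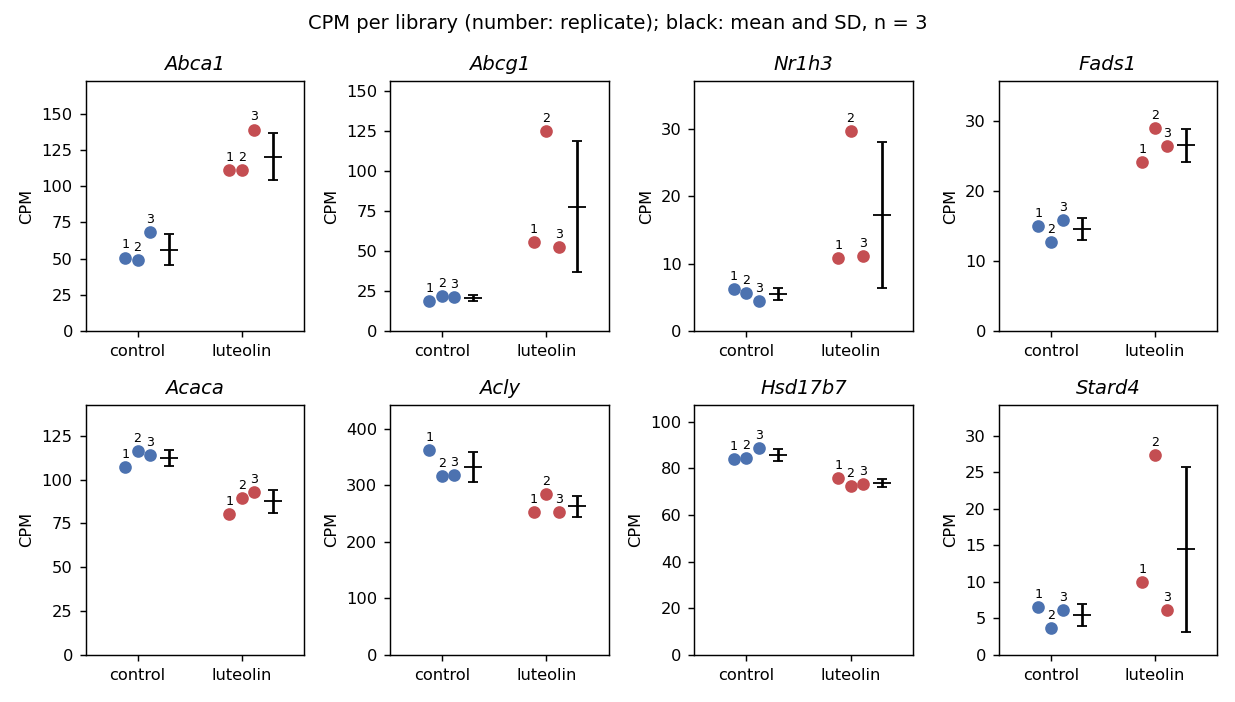
CPM in each library for the genes called or not overlapping between the groups, with points for the libraries and black bars for the group mean and SD (n = 3 per group). Abca1, Abcg1, Nr1h3 and Fads1 are higher in every luteolin library than in any control library, Acaca, Acly and Hsd17b7 are lower, and Stard4 overlaps, with luteolin replicate 2 at 27.3 CPM.

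Macrophages are known for strong LXR targets, and macrophage markers were also higher in luteolin tumours. Of 11 macrophage markers 2 rose at the study's threshold (Cd68 and Cd14, both named after their values were seen, 18.2%, against 11.3% of all genes), or 4 without luteolin replicate 2, 8 were higher at an unadjusted p under 0.05 (background 14.0%), and 6 lay higher in every luteolin library (54.5%, background 15.9%). Their sum was 2387, 2030 and 2294 CPM in control and 2631, 3799 and 3483 CPM in luteolin tumours, with Lyz2 the most abundant. None was at 0 in any library. Cd68, a lysosomal protein of macrophages, measured 61.4, 55.4 and 53.7 CPM in control and 113, 144 and 124 CPM in luteolin tumours (log2 fold change 1.16, adjusted p = 0.0331 by edgeR). Without luteolin replicate 2 its log2 fold change was 1.08. The mean log2 level of the 11 markers was 0.75 higher in luteolin tumours. On that scale, with the marker mean subtracted in each library, Abca1 differed by 0.36 between the groups and its libraries overlapped. Abcg1 (1.04) and Nr1h3 (0.74) stayed above the controls in every luteolin library. For Nr1h3 the margin was narrow, with its lowest luteolin library at -4.08 and its highest control at -4.21. Fads1 differed by 0.12, with its lowest luteolin and highest control library both at -2.91 to the digits given. The subtraction lowers the difference of every gene by the same 0.75, and it put 10 of 16 sterol synthesis enzymes, 3 of 5 genes of SREBP control and 4 of 8 lipogenic genes below the controls in every luteolin library, which is therefore no result about them. It is no test of the LXR genes either. The part of macrophage number in the LXR group was not tested, and these libraries do not say which cells held the RNA.

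Further genes of each pathway were listed by function. Of 9 tested genes around sterol synthesis, out of 10 listed, 0 passed the study's threshold. At an unadjusted p under 0.05 by edgeR, 1 of the 9 was higher (background 14.0%) and 1 lower (6.44%), about as many as among all genes. The higher was Cyb5r3, a reductase that feeds electrons to desaturases and sterol enzymes (log2 fold change 0.70, adjusted p = 0.205 by edgeR). The lower was Acat2, the thiolase at the head of the route (-0.39, adjusted p = 0.216 by edgeR). Cyb5b had a log2 fold change of -0.22. Of 7 further genes of SREBP processing and sterol sensing 0 passed the study's threshold, and 0 an unadjusted p under 0.05 by edgeR. All 7 had log2 fold changes below 0, as did 7580 of the 14963 genes tested. Their median was -0.18, or -0.10 without luteolin replicate 2, the library where 5 of the 7 were lowest. The smallest p values were those of Mbtps2, the protease that makes the final cut in SREBP (-0.64, SE 0.32), Erlin2 (-0.24, SE 0.14) and Insig2 (-0.22, SE 0.21).

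Of 25 further genes of lipogenesis and lipid assembly, 2 rose (8%, against the 11.3% of all genes) and 0 fell. Acsl1, which activates long-chain fatty acids, measured 17.4, 21.1 and 21.9 CPM in control and 39.7, 77.6 and 31.2 CPM in luteolin tumours (log2 fold change 1.30, SE 0.35, adjusted p = 0.114 by edgeR). Without luteolin replicate 2 its log2 fold change was 0.84, under 2-fold, and the call was lost. Mid1ip1, a stimulator of acetyl-CoA carboxylase, had means of 4.36 ± 0.523 CPM and 16.9 ± 14.2 CPM (SD, n = 3 each), and a log2 fold change of 1.96 (SE 0.58, adjusted p = 0.136 by edgeR), or 1.02 without that library. Elovl7 followed by p, with 1.70 (SE 0.77), or 1.10 without that library. In this list 19 of 25 genes were highest in luteolin replicate 2, and its median log2 fold change of 0.22 went to -0.16 without that library.

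Of 16 further genes of oxysterol, LXR and sterol handling, 3 rose at the study's threshold (18.8%, against 11.3% of all genes) and 0 fell (1.52%), and 7 lay higher in every luteolin library (43.8%, background 15.9%). Ch25h, which makes an oxysterol from cholesterol, measured 3.48, 6.30 and 3.81 CPM in control and 21.6, 16.5 and 19.3 CPM in luteolin tumours. The groups were far apart and luteolin replicate 2 was the lowest of its group, with a log2 fold change of 2.08 (SE 0.31, adjusted p = 0.0393 by edgeR) and 2.19 without that library. Rxra, the partner of LXR, and Smpdl3a, a phosphodiesterase, were the other genes called, and they were named after their values were seen. Rxra measured 16.4, 13.9 and 11.9 CPM in control and 24, 80 and 20.8 CPM in luteolin tumours, and its log2 fold change of 1.57 went to 0.69 without luteolin replicate 2, where its call was lost. Smpdl3a had a log2 fold change of 1.17, or 1.34 without that library. Plin2, the coat protein of lipid droplets, had means of 159 ± 11.1 CPM in control and 249 ± 22.0 CPM in luteolin tumours (SD, n = 3 each; log2 fold change 0.65, adjusted p = 0.0756 by edgeR). Arl4c, a small GTPase, had a log2 fold change of 0.67 (SE 0.18, adjusted p = 0.114 by edgeR). Both did not overlap between the groups and stayed under 2-fold.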

How the data were processed

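RNA-seq libraries of H22 tumours, 3 from each group, were analysed. The authors sequenced paired reads of 150 bases, and the submitters' processing notes name bcl2fastq 2.0, HISAT2, StringTie and DESeq2 and the builds rn6 and mm39. The deposited table holds whole numbers per gene symbol, without positions, and these were treated as estimated counts, since 44.8% of the values from 1 to 40 are multiples of 4. The methods name Trizol and TruSeq, whereas the labels name RNeasy and SMARTer kits. The labels do not tie libraries to animals, so p-values measure the spread between these samples, which may be technical.

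Groups were compared in R 4.3.3 with edgeR 4.0.16 (TMM, filterByExpr, quasi-likelihood test, no covariate, Benjamini-Hochberg adjustment over 14963 genes). Calls used the study's threshold and an adjusted p under 0.05. CPM are counts over the TMM-scaled library total, and log2 CPM has a prior count of 2. Alternatives were DESeq2 1.42.0, limma 3.58.1 (voom with sample quality weights), other normalizations and filters, values divided by 4, GC and length offsets (longest GENCODE M21 transcript per symbol, spline with 4 and 3 degrees of freedom), a block on replicate number and leaving out each library. Promoters came from RefSeq. The scripts were tested on simulated data. The fit covers all genes, and the genes named are all 33 listed, the 3 with the smallest p in each further pathway list and the most abundant gene of each cell list, with others marked as named after their values were seen. The members and all lists were chosen with earlier results of these data known. Exact permutation of 3 against 3 libraries cannot go below p = 0.1 and was not used.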

Additional observations from a re-analysis of the deposited data

How the results depend on the processing

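Over the 16 alternative settings, 0 of the 33 genes fell at the study's threshold, and 3 to 4 rose, or 6 with voom. Counts at an adjusted p moved most. Over all genes, edgeR's 200 higher and 28 lower became 1543 and 415 with DESeq2, 1886 and 1311 with voom, 345 and 47 with at least 10 counts in every library, 327 and 46 with values divided by 4, and 722 and 283 with GC and length offsets. Voom gave 498 lower at the study's threshold. With 1 library left out, the counts ran from 1139 to 2104 higher and 140 to 305 lower at the study's threshold, and from 0 to 276 and 0 to 36 at an adjusted p, by edgeR. Among the 33 genes the 1 higher call at an adjusted p became 4 with DESeq2, 6 with voom, 0 with RLE normalization, 0 with no filter on low counts, 2 with at least 10 counts, 2 with values divided by 4, 4 with GC and length offsets, and 0 to 2 with 1 library left out. Voom called 2 lower. Stard4 lost its call with the offsets (1.63), with the block (1.11) and with both (1.15).

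The replicate numbers come from the labels and share only a number, since deviations of same-numbered libraries correlated at -0.196, -0.092 and 0.063. With a replicate block, 34 genes were higher and 1 lower at an adjusted p by edgeR, with 0 of the 33 higher. With GC and length offsets and the block, 2 of the 33 were higher.

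The median log2 fold change of lipogenesis was -0.03 with voom, and -0.08 to 0.42 with 1 library left out. That of the LXR group was 1.11 with voom, and 1.09 to 1.52. That of sterol synthesis was -0.00098 to 0.08, and that of SREBP control -0.14 to 0.23. Summed levels with 1 library left out had ratios of 0.956 to 1.03 for sterol synthesis, 0.895 to 1.13 for SREBP control, 0.964 to 1.05 for lipogenesis and 1.35 to 1.70 for the LXR group. Of the further LXR genes voom called 1 lower, and 1 to 3 were higher with 1 library left out, as were 1 to 4 of the further lipogenic genes.

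Some log2 fold changes changed sign, most of them of genes near 0, but also those of Scd1 (0.97 with all libraries) and Elovl6 (0.75). With voom the log2 fold change was -0.17 for Hmgcs1, -0.15 for Pmvk, 1.01 for Idi1, -0.04 for Fdps, -0.09 for Lss, -0.05 for Cyp51, -0.0049 for Srebf1, -0.12 for Srebf2, 0.06 for Scd2 and -0.13 for Elovl6. With no filter it was -0.0085 for Hmgcs1 and -0.0096 for Cyp51, with DESeq2 -0.0011 and with RLE -0.001 for Cyp51. With upper-quartile normalization it was 0.04 for Dhcr7 and 0.004 for Scap, and with at least 10 counts 0.0024 for Dhcr7. Pmvk was at -0.06 with GC and length offsets and -0.07 with the block added. With 1 library left out the ranges crossed 0 for Hmgcs1 (-0.15 to 0.09), Pmvk (-0.21 to 0.22), Idi1 (-0.57 to 0.39), Fdft1 (-0.27 to 0.0096), Sqle (-0.22 to 0.04), Lss (-0.03 to 0.17), Cyp51 (-0.13 to 0.06), Ebp (-0.26 to 0.05), Sc5d (-0.39 to 0.04), Dhcr7 (-0.20 to 0.07), Srebf1 (-0.14 to 0.36), Srebf2 (-0.15 to 0.25), Scap (-0.24 to 0.06), Scd1 (-0.03 to 1.28), Scd2 (-0.27 to 0.12) and Elovl6 (-0.12 to 1.04). The cause was not tested for any of these.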

Other observations

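Marker lists of other cells differed between the tumours and are given here as values beside the lipid genes. Over all genes 11.3% rose at the study's threshold. Fibroblast markers rose in 5 of 7 genes at the study's threshold, with summed levels of 1607, 1431 and 1540 CPM in control and 4115, 5060 and 2075 CPM in luteolin tumours, led by Col3a1, and 4 of 7 rose without luteolin replicate 2. T cell markers rose in 6 of 6 genes, from 9.52, 13 and 12 CPM to 37.7, 70.4 and 40.7 CPM, led by Cd4, also 6 without that library. Neutrophil markers rose in 4 of 6 genes, from 18.5, 18.2 and 21.3 CPM to 157, 151 and 75.4 CPM, led by Csf3r, also 4 without it. Not called were Ly6g (log2 fold change -0.57, at 0.556 CPM or less in every library) and Retnlg (0.43). Both were named after their values were seen. Endothelial markers rose in 2 of 5 genes, from 79.1, 82.1 and 100 CPM to 156, 245 and 96.5 CPM, led by Pecam1, and 0 of 5 were called by edgeR without luteolin replicate 2. Keratinocyte markers rose in 7 of 8 tested genes and sebaceous gland markers in 4 of 7, against 0 of 7 adipocyte markers, and these counts were 7, 3 and 0 without that library. Markers at 0 in all controls, among them Krt14 and Krt79, passed the filter on low counts only through luteolin libraries. The filter therefore largely fixed the keratinocyte and sebaceous gland counts, which are no result about these markers.

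Skeletal muscle markers, led by Myh4, summed to 421, 730 and 995 CPM in control and 318, 1031 and 226 CPM in luteolin tumours. At the study's threshold 1 of 7 rose and 0 fell, and 0 rose without luteolin replicate 2. Their median log2 fold change was -0.16, or -0.97 without that library. In that setting Myh4 (-2.45), Ckm (-1.42) and Myl1 (-1.10) were lower at the study's threshold by edgeR, as were 278 of all genes. Mb lay the other way (0.79). Apart from Myh4, these genes were named after their values were seen. Of 10 tested hepatoma and hepatocyte markers, led by Trf, 0 rose at the study's threshold. At an unadjusted p under 0.05 by edgeR 2 of the 10 were lower, against 6.44% of all genes. These were Trf (log2 fold change -0.86) and Afp (-0.58), or -0.65 and -0.64 without luteolin replicate 2. In both, every luteolin library lay below every control (20.0% of the tested markers, background 12.8%). The sums were 678, 678 and 594 CPM in control and 535, 389 and 569 CPM in luteolin tumours. These sums are mostly Trf and Krt18, whereas 7 of the 10 log2 fold changes were above 0, with a median of 1.43, or 1.81 without luteolin replicate 2, mostly of markers at a few CPM or less. Proliferation markers, led by Top2a, summed to 1699, 2181 and 2723 CPM in control and 1616, 1099 and 1924 CPM in luteolin tumours. Of these 0 of 6 were called, and 1 was lower at an unadjusted p under 0.05 by edgeR (background 6.44%). The part of any of these cells in the levels of the lipid genes was not tested.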
